A study of Mus musculus with 34 samples.

Results

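The comparison described here asked whether reporter-positive and reporter-negative mammary epithelial cells (MECs) differed in the same genes on both sides of the CD29 gate. For each gene it is the GFP effect (GFP+ minus GFP-) in CD24+CD29lo cells minus the GFP effect in CD24+CD29+ cells. All 34 of the 34 arrays entered it, with groups taken from the sample labels: 9 of GFP+ CD24+CD29lo cells, 10 of GFP- CD24+CD29lo cells, 9 of GFP+ CD24+CD29+ cells and 6 of GFP- CD24+CD29+ cells. All mice were females of 4 weeks of age, labelled CD1 backcrossed to FVB. They carried the MMTVrtTA transgene, in which the mouse mammary tumor virus promoter drives a doxycycline-dependent activator, and the H2BGFP transgene, a histone-GFP fusion that this activator switches on. All were kept on doxycycline. GFP- cells therefore carry the same transgenes and differ from GFP+ cells by the absence of reporter protein at the sort. What decides which cells are GFP+ was not tested. Dead cells and cells with the surface antigens CD45, Ter119 or CD31 had been gated out. Each sample is one array, and separate animals are not stated, so p-values measure the spread between samples. In bulk RNA, fewer cells of a type and less RNA per cell cannot be told apart.

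The mammary epithelium has an inner luminal and an outer basal layer. CD29, the integrin beta-1 chain, is high on basal cells and low on luminal cells. Basal cells include contractile myoepithelial cells and the cells with mammary stem cell activity. Luminal cells include hormone-sensing cells, which express steroid receptors and send paracrine signals to their neighbours, and progenitors of the milk-producing alveolar cells.

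The labels of the gates held in the data. The summed signal of 5 basal markers was 204 to 4638 on GFP+ CD24+CD29lo arrays and 294.8 to 2095 on GFP- CD24+CD29lo arrays, against 24490 to 47690 on the arrays of the CD24+CD29+ gate. *Itgb1*, the transcript of CD29, had median signals (log2) of 9.66 in GFP+ and 9.50 in GFP- CD24+CD29lo cells. In GFP+ and GFP- CD24+CD29+ cells its medians were 10.39 and 10.02, and the ranges of the gates overlapped. *Itgb1* had a difference of the GFP effect of -0.03 (log2, SE 0.22), and *Cd24a* one of -0.48 (SE 0.26; limma, adjusted p = 0.991 and 0.686). These differences do not test the gate labels. The arrays fall into a first set, replicates 1 to 12, and a second, replicates 13 to 34, which enter the model as a term. No GFP- CD24+CD29+ array belongs to the first set, so the difference can be computed within the second set only, and that value is given beside the main one for some genes. The lowest share of detected probes, 26.3%, was on GFP+ CD24+CD29lo replicate 22.

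The GFP effect differed between the gates for 77 of 16535 genes, or 0.466% (limma, adjusted p under 0.05). On the level of probes it differed for 102, or 0.284%. Of the 77 genes, 54 genes (0.327% of those tested) had a negative difference, that is, a GFP effect that was lower in CD24+CD29lo cells. The other 23 genes (0.139%) had a positive one. Differences ran from -4.48 to -0.95 and from 1.24 to 4.32 on the log2 scale, with medians of -2.20 and 2.12. The median over all genes tested was 0.00547. Within a gate, 347 genes (2.1%) passed between GFP+ and GFP- CD24+CD29lo cells and 27 genes (0.163%) between GFP+ and GFP- CD24+CD29+ cells. In the basal gate 26 of the 27 (0.157% of all genes) were lower in GFP+ cells. The 1 that was higher (0.00605%) was eGFP, the reporter used for the sort.

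The called genes fell into a few patterns. All 54 genes with a negative difference were lower in GFP+ than in GFP- CD24+CD29lo cells and passed there, and 0 of them passed in CD24+CD29+ cells, where the median absolute GFP effect of these genes was 0.25 (log2). For 25 of the 54, the highest GFP+ CD24+CD29lo array lay below the lowest GFP- CD24+CD29lo array, a pattern that 0.327% of all genes showed. The 23 genes with a positive difference were more varied. Of these, 10 passed in CD24+CD29+ cells only, where they were lower in GFP+ cells. Another 6 passed in CD24+CD29lo cells only, where they were higher in GFP+ cells. In both gates 1 passed, the eGFP reporter, and 6 passed in neither gate. For 8 of the 23, every GFP+ CD24+CD29+ array lay below every GFP- CD24+CD29+ array, against 0.0968% of all genes. GFP+ arrays lay above all GFP- arrays in the luminal gate for 3 of the 23, *Csn3*, *Wfdc3* and eGFP (0.0423% of all genes), and in the basal gate for eGFP and for *Slc7a2*, a gene of negative difference (0.0605% of all genes). These patterns use the same contrasts as the calls and are a description of the genes called.

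**Figure D1:**
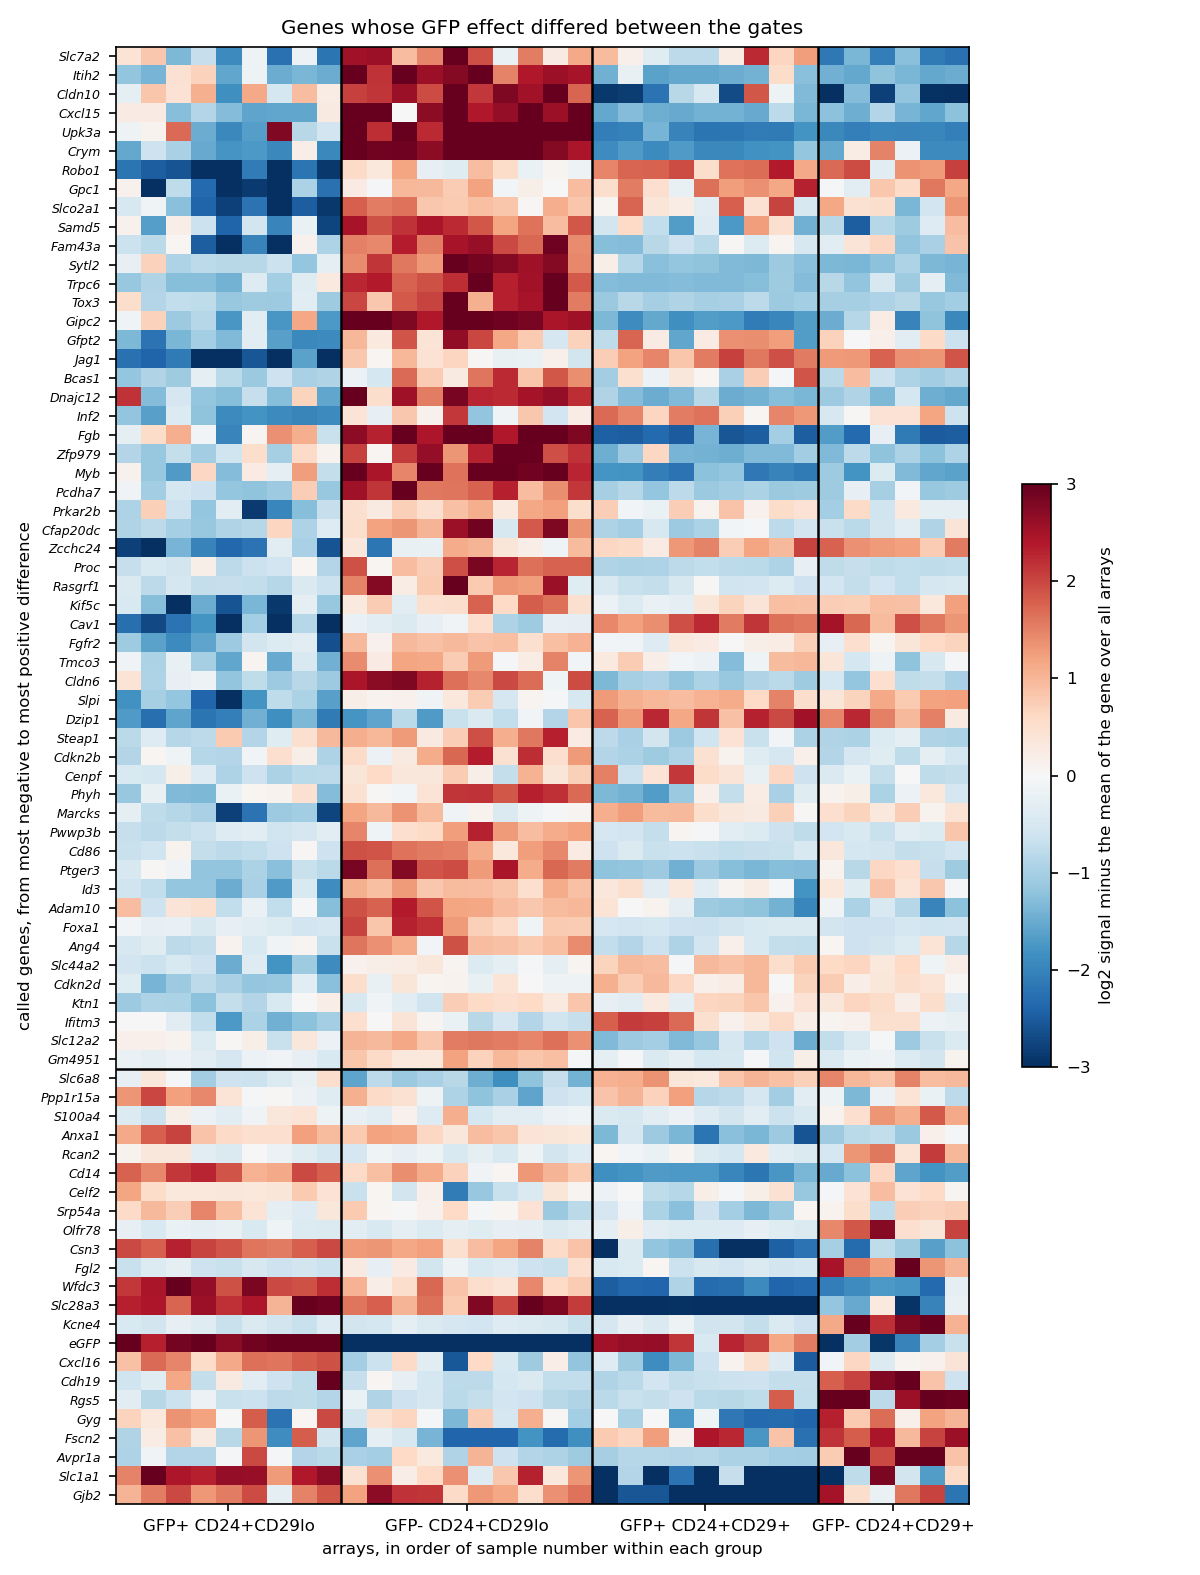
Signal of the 77 called genes on all 34 arrays, as the log2 signal minus the mean of the gene over all arrays. Genes run from the most negative difference at the top to the most positive at the bottom, and the horizontal line parts the 54 negative from the 23 positive genes. In the upper block the GFP+ CD24+CD29lo arrays at the left are low against the GFP- CD24+CD29lo arrays beside them.

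**Figure D2:**
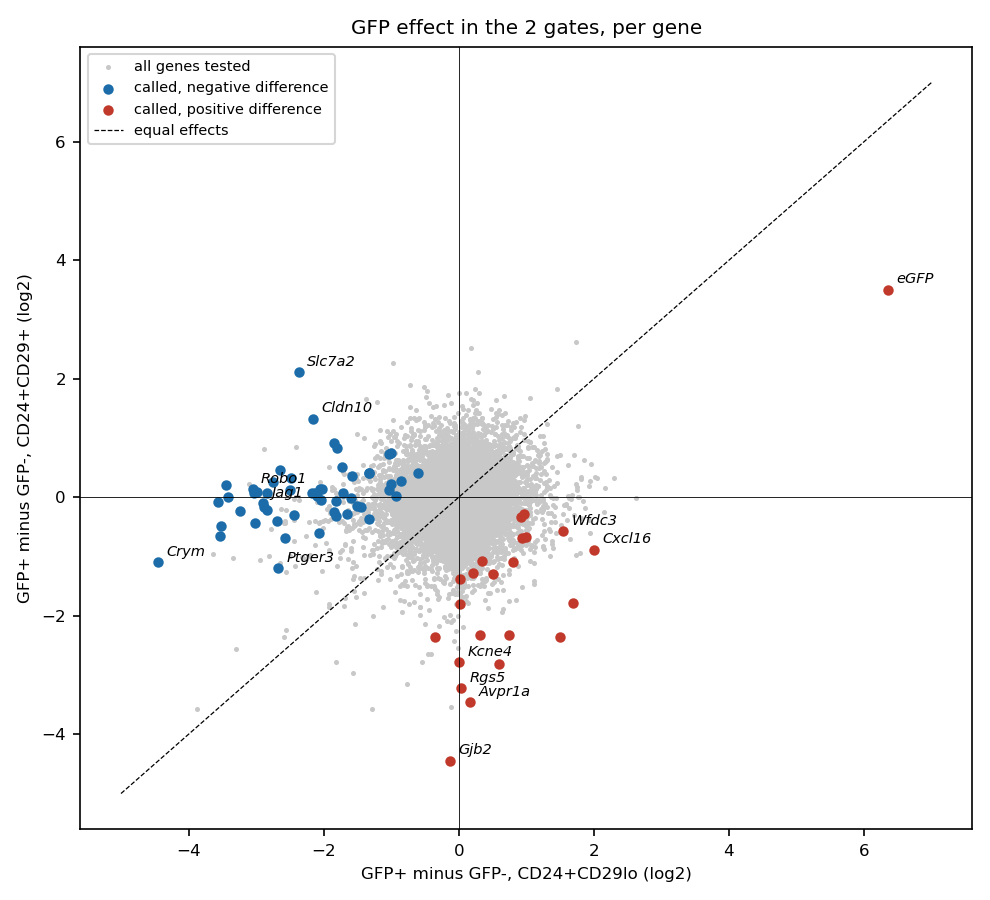
GFP+ minus GFP- in CD24+CD29lo cells (horizontal axis, log2) and in CD24+CD29+ cells (vertical axis, log2) for 16535 genes. The dashed line marks equal effects. Called genes with a negative difference (blue) lie to the left near 0 on the vertical axis, and many of those with a positive difference (red) lie low near 0 on the horizontal axis.

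Promoters of some called genes are shown because *Foxa1* is itself among the negative genes and because the estrogen receptor gene *Esr1* also fell in GFP+ cells of the luminal gate. RefSeq promoters (GRCm38.p6, 250 bases before to 50 after the start) were at hand for 57 of the 77 genes. Each runs 5′ to 3′ on the strand of the gene, and capitals mark the letters searched for on both strands.
*Foxa1*, chr12:57546062-57546361, minus strand, forkhead letters TGTTTAC read as GTAAACA: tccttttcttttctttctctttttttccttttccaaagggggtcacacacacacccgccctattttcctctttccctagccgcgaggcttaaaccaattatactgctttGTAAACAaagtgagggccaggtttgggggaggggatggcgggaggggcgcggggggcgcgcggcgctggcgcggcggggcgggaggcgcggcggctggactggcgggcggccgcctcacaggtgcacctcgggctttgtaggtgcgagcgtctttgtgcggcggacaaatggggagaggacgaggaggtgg
*Myb*, chr10:21160935-21161234, minus strand, forkhead letters TGTTTAC: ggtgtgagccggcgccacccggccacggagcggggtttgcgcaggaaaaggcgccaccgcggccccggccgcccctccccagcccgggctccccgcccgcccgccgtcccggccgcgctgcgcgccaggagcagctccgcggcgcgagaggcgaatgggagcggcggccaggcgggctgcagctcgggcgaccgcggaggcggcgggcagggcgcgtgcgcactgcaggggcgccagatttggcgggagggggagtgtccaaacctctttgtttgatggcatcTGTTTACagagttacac
*Gjb2*, chr14:57104653-57104952, minus strand, nuclear receptor letters AGGTCA read as TGACCT: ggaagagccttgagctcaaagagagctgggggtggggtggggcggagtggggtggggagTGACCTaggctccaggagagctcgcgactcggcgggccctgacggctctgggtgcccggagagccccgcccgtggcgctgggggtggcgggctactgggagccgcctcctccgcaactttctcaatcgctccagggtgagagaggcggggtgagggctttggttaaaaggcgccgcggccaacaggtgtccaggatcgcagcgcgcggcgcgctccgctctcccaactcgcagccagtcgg
The letters TGTTTAC were in 3 of 41 promoters of negative genes (*Foxa1*, *Gfpt2* and *Myb*), in 0 of 16 of positive genes and in 3.55% of all 27025 promoters. The letters AGGTCA were in 2 of 41 promoters of negative genes (*Kif5c* and *Phyh*), or 4.88%, a lower share than the 16.0% of all promoters. They were in 5 of 16 promoters of positive genes, or 31.2%, *Gjb2* among them. *Gjb2* is a positive gene whose GFP+ and GFP- luminal groups overlapped. These matches describe the sequence of the windows and say nothing of binding.

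Genes of hormone-sensing luminal cells stood on the negative side. The gene lists were chosen with earlier results of these data known, so counts within them are a description. Of 16 genes of this list that were tested, 14 had a negative difference, with a median of -1.08. Among all 16535 genes, 8137 had a negative difference. Of the 16, 4 were called, against 0.327% of all genes: *Cxcl15*, *Crym*, *Sytl2* and *Foxa1*. In CD24+CD29lo cells 9 of the 16 were lower in GFP+ cells and passed, where 1.55% of all genes did, and in CD24+CD29+ cells 0 passed in either direction. *Foxa1* encodes a forkhead factor that opens chromatin for steroid receptors. Its signal was 4.45 to 4.94 (median 4.68, log2) on GFP+ CD24+CD29lo arrays and 4.89 to 7.35 (median 5.84) on GFP- CD24+CD29lo arrays, and it was detected on 0 of 15 CD24+CD29+ arrays. The luminal groups overlapped only between 4.89 and 4.94, and both basal groups lay at background. The difference of the GFP effect of *Foxa1* was -1.36 (SE 0.28; limma, adjusted p = 0.0229) and depends on the background of the basal arrays. *Crym*, a thyroid hormone-binding protein of the cytosol, was 4.42 to 6.57 (median 4.83) in GFP+ and 8.81 to 10.23 (median 9.49) in GFP- CD24+CD29lo cells. In the basal gate *Crym* was 4.43 to 5.21 in GFP+ cells, where no array detected it, and 4.45 to 7.85 in GFP- cells. The groups were fully apart in the luminal gate only. The difference was -3.36 (SE 0.52, limma, adjusted p = 0.000839), with a fall by 4.46 in GFP+ CD24+CD29lo cells and a fold of at least 1.51 lower in GFP+ CD24+CD29+ cells.

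*Cxcl15*, a chemokine, and *Sytl2*, a partner of vesicle-bound Rab proteins, had the same shape. *Cxcl15* was 4.42 to 6.26 in GFP+ and 6.01 to 9.79 in GFP- CD24+CD29lo cells and was not detected on any CD24+CD29+ array, and its difference was -3.49 (SE 0.53, limma, adjusted p = 0.000694). *Sytl2* was 4.69 to 6.54 in GFP+ and 7.15 to 9.02 in GFP- CD24+CD29lo cells, with a difference of -3.01 (SE 0.39, adjusted p = 7.63e-05). Both fell in GFP+ luminal cells, and in the basal gate *Sytl2* was detected on 1 array. *Esr1*, the estrogen receptor, and *Pgr*, the progesterone receptor, passed within the luminal gate and did not pass as a difference. *Esr1* was 4.78 to 8.37 in GFP+ and 8.79 to 10.48 in GFP- CD24+CD29lo cells, without overlap, and 4.46 to 7.24 in GFP+ and 4.72 to 7.81 in GFP- CD24+CD29+ cells. Its GFP effect was -2.81 in CD24+CD29lo cells and -0.98 in CD24+CD29+ cells, a difference of -1.82 (SE 0.67, limma, adjusted p = 0.441). For *Pgr* the difference was -2.05 (SE 0.61, adjusted p = 0.220).

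Luminal progenitor and alveolar genes lay on the positive side. Of 24 tested, 23 had a positive difference, against 50.8% of all genes, and the median was 1.29. Of these, 2 were called, *Csn3* and *Cd14*, against 0.139% of all genes. *Csn3* encodes kappa-casein, a milk protein. It was 12.15 to 12.91 (median 12.50) in GFP+ and 11.09 to 12.10 (median 11.78) in GFP- CD24+CD29lo cells, and 7.28 to 10.16 (median 8.34) in GFP+ and 8.29 to 9.84 (median 9.45) in GFP- CD24+CD29+ cells. GFP+ cells were higher without overlap in the luminal gate and overlapped GFP- cells in the basal gate, and neither effect passed within its gate (0.80 and -1.09, limma, adjusted p = 0.107 and 0.23). The difference of *Csn3* did pass, at 1.89 (SE 0.39, adjusted p = 0.0186). It was 2.33 within the second set (adjusted p = 0.0184). Both other *Csn3* probes were called too, at 1.99 and 2.06. *Cd14*, a co-receptor for bacterial lipopolysaccharide, was 7.64 to 8.89 in GFP+ and 6.48 to 8.00 in GFP- CD24+CD29lo cells, and in CD24+CD29+ cells no GFP+ and 3 of 6 GFP- arrays detected it. Its difference of 1.63 (SE 0.36, adjusted p = 0.0384) lost the call when any of 19 single arrays was left out.

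Most other progenitor and milk genes had differences of this sign without passing. The casein *Csn1s1* had a difference of 2.57 (adjusted p = 0.328), *Elf5*, an alveolar transcription factor, 2.08 (SE 0.52, limma, adjusted p = 0.0798), and *Ltf*, lactoferrin, 2.04 (adjusted p = 0.146). *Elf5* was 9.46 to 11.21 in GFP+ and 9.29 to 10.68 in GFP- CD24+CD29lo cells, and 4.45 to 5.68 in GFP+ and 4.72 to 7.97 in GFP- CD24+CD29+ cells. Its GFP effect was 0.46 in the luminal gate and -1.62 in the basal gate, and neither passed. In the whole list the median GFP effect was 0.77 in CD24+CD29lo cells and -0.57 in CD24+CD29+ cells. Within the luminal gate 3 of the 24 were higher in GFP+ cells and passed, against 0.544% of all genes: *Cd14*, *Lalba*, alpha-lactalbumin (1.37, adjusted p = 0.0432), and *Xdh*, a milk-fat globule protein (1.59, adjusted p = 0.0207).

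Myoepithelial contractile genes were also mostly positive, 16 of 18 against 50.8% of all genes, with a median of 0.86. As a difference, 0 were called. In CD24+CD29lo cells 4 of them were higher in GFP+ cells and passed, against 0.544% of all genes: *Acta2*, smooth muscle actin, *Myl9*, *Myh11* and *Smtn*. *Acta2* was 5.84 to 11.28 (median 9.82) in GFP+ and 5.53 to 8.86 (median 6.57) in GFP- CD24+CD29lo cells, and its GFP effect there was 2.63. In the basal gate *Acta2* was 13.63 to 14.09 in GFP+ and 13.75 to 13.96 in GFP- cells, a level that hardly varied. Its difference was 2.64 (SE 0.75, limma, adjusted p = 0.189). Beside it, the summed signal of the 5 basal markers had medians of 2163 on GFP+ and 1078 on GFP- CD24+CD29lo arrays, and the part of basal cells in these values was not tested.

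**Figure D3:**
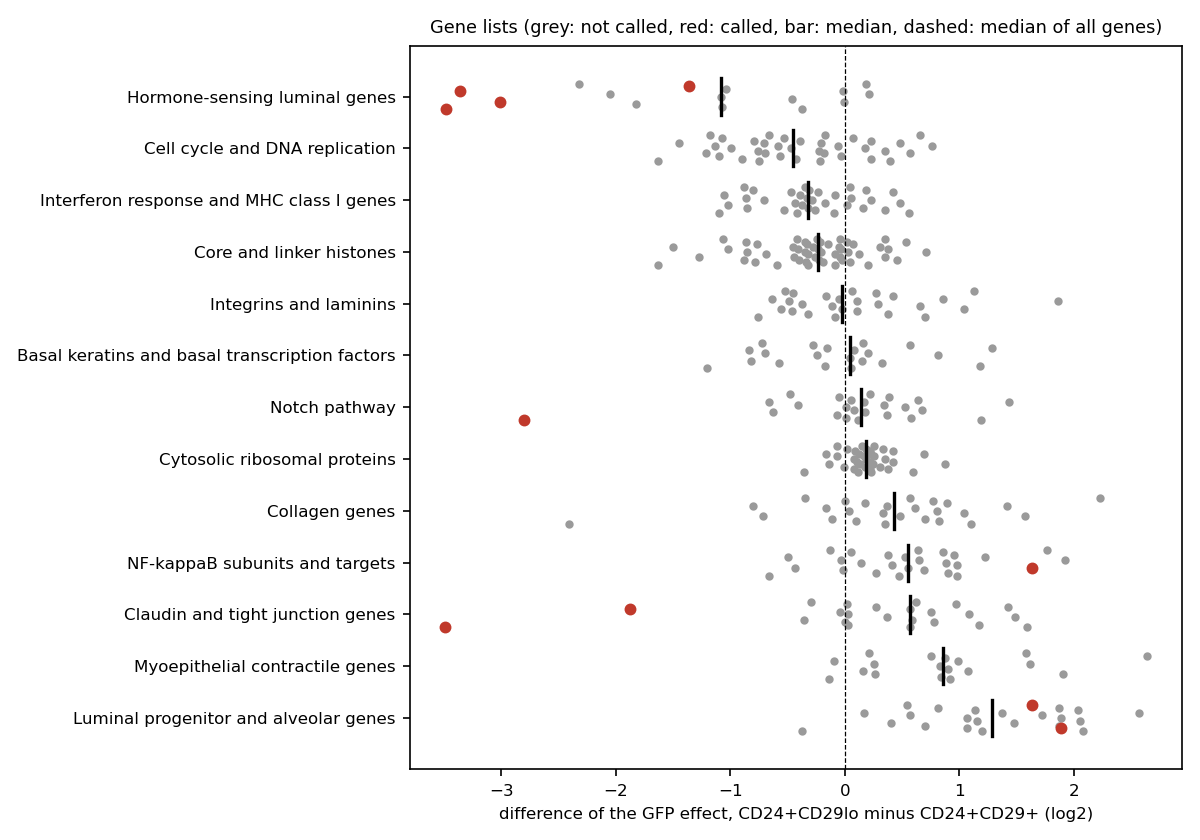
Difference of the GFP effect (log2) of each tested gene of 13 lists, chosen for display after the values were seen. Grey points were not called, red points were, bars are list medians and the dashed line is the median of all genes. Hormone-sensing genes lie left, progenitor and contractile genes right, and ribosomal protein genes close together near 0.

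*Robo1* and *Jag1* were called on the negative side with high levels in both basal groups. *Robo1*, a receptor for Slit guidance proteins, was 4.43 to 6.04 (median 5.55) on GFP+ CD24+CD29lo arrays and 7.79 to 9.34 (median 8.34) on GFP- CD24+CD29lo arrays. It was 8.67 to 10.52 (median 9.83) in GFP+ and 7.80 to 10.18 (median 9.67) in GFP- CD24+CD29+ cells. GFP+ luminal cells stood alone at the bottom, and the basal groups overlapped. The difference was -3.18 (SE 0.43, limma, adjusted p = 0.000126), while the 3 other *Robo1* probes gave -1.29, -0.65 and 0.01 and were not called. *Jag1*, a Notch ligand, showed the same order, with 4.52 to 6.47 (median 5.52) in GFP+ and 7.54 to 9.09 (median 8.20) in GFP- CD24+CD29lo cells, and 8.83 to 10.15 (median 9.64) in GFP+ and 9.37 to 9.97 (median 9.43) in GFP- CD24+CD29+ cells. The GFP effect of *Jag1* was -2.90 in CD24+CD29lo cells and -0.10 in CD24+CD29+ cells, a difference of -2.80 (SE 0.35, adjusted p = 7.57e-05). It was -3.15 within the second set (adjusted p = 0.000363). Of 24 Notch pathway genes tested, 23 were not called, and 17 had a positive difference.

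*Fgfr2*, a receptor for fibroblast growth factors, was 8.21 to 10.53 (median 9.76) in GFP+ and 10.98 to 11.90 (median 11.74) in GFP- CD24+CD29lo cells. In the basal gate *Fgfr2* was 10.46 to 11.57 in GFP+ and 10.60 to 11.51 in GFP- cells, which overlapped almost fully. The difference was -1.99 (SE 0.32, limma, adjusted p = 0.00157), and of its 3 other probes, at -1.62 to -2.37, 1 was called. None of the other 17 genes of the FGF and Sprouty list was called. *Gpc1*, a heparan sulfate proteoglycan of the cell surface, was 4.52 to 8.11 in GFP+ and 7.90 to 9.19 in GFP- CD24+CD29lo cells, and 7.74 to 10.28 in GFP+ and 7.66 to 9.56 in GFP- CD24+CD29+ cells (difference -3.11, SE 0.62, adjusted p = 0.0144). *Cav1*, the main protein of caveolae, had a difference of -2.11 (SE 0.48, adjusted p = 0.0448), which lost the call on leaving out any of 26 single arrays. *Id3*, an inhibitor of helix-loop-helix factors and a target of bone morphogenetic proteins, had one of -1.46 (SE 0.33, adjusted p = 0.044), lost in 24 of the 34 omissions.

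**Figure D4:**
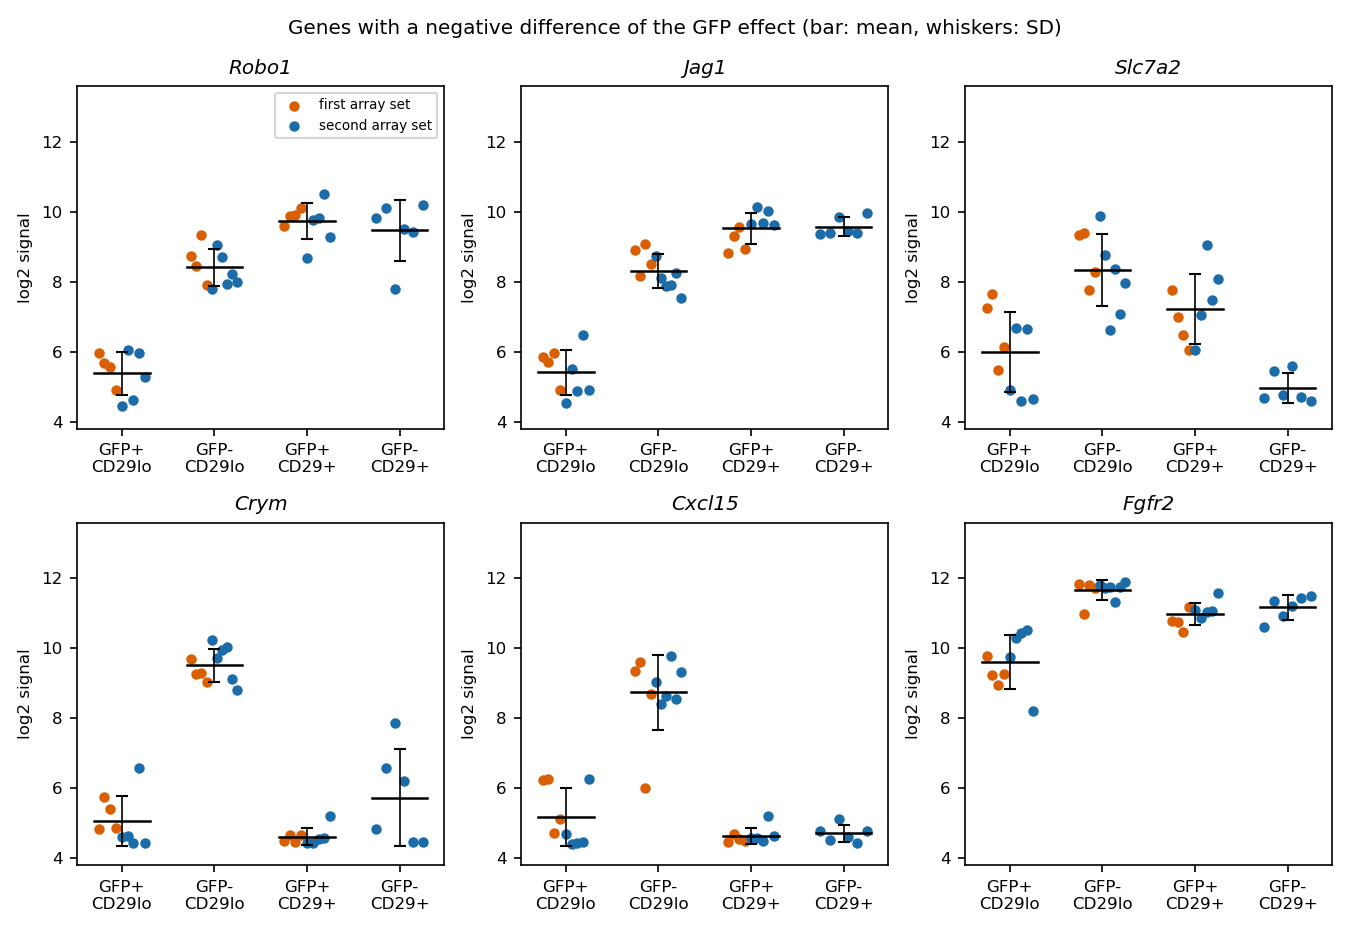
Log2 signal on each array for 6 genes with a negative difference, by group, in orange for the first and blue for the second array set, with mean and SD. *Robo1*, *Jag1* and *Fgfr2* are low in GFP+ CD24+CD29lo cells alone, *Crym* and *Cxcl15* are highest in GFP- CD24+CD29lo cells, and *Slc7a2* runs in opposite directions in the 2 gates.

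By detection in the basal gate the 54 negative genes split in this way: 29 were detected on most of the 15 CD24+CD29+ arrays, like *Robo1*, *Jag1* and *Fgfr2*, 20 on fewer, and 5 on none. The last were *Cxcl15*, *Foxa1*, *Gm4951*, *Proc* and *Tox3*, and for these 5 the size of the difference rests on the background of the basal arrays. Overall 24 of the 77 called genes were detected on no array of at least 1 group. *Tox3*, a high mobility group box protein, was 4.37 to 6.04 in GFP+ and 6.32 to 9.30 in GFP- CD24+CD29lo cells (difference -2.91, SE 0.41, limma, adjusted p = 0.000272). *Trpc6*, a calcium-permeable channel, was 4.34 to 6.05 in GFP+ and 7.51 to 9.33 in GFP- CD24+CD29lo cells, against 4.42 to 4.70 in GFP+ and 4.42 to 5.46 in GFP- CD24+CD29+ cells. *Trpc6* had the lowest adjusted p of the negative genes, 2.15e-06 (difference -3.00, SE 0.32), but another *Trpc6* probe of about the same mean signal gave -1.23 (adjusted p = 0.223) and the other one 0.12. *Myb*, a transcription factor of progenitor cells in blood, was 4.89 to 7.84 in GFP+ and 8.05 to 10.04 in GFP- CD24+CD29lo cells (difference -2.59, SE 0.49, adjusted p = 0.00912). The other *Myb* probes gave -1.91 and 0.36 and were not called.

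Other negative genes with large differences followed one of these orders. *Itih2*, a heavy chain that binds hyaluronan, was 4.52 to 6.77 in GFP+ and 7.57 to 9.55 in GFP- CD24+CD29lo cells and at most 6.65 in GFP+ and 4.89 in GFP- CD24+CD29+ cells (difference -3.65, SE 0.48, limma, adjusted p = 7.63e-05). *Upk3a*, a uroplakin, was 4.60 to 9.32 in GFP+ and 8.75 to 10.64 in GFP- CD24+CD29lo cells, and *Gipc2*, an adaptor with a PDZ domain, was 4.63 to 7.54 in GFP+ and 8.80 to 9.90 in GFP- CD24+CD29lo cells. Their differences were -3.41 and -2.89. *Samd5* (-3.07) and *Fam43a* (-3.02) did not overlap between GFP+ and GFP- luminal cells, unlike *Upk3a*, while their basal groups overlapped. The 23 negative genes not named elsewhere had differences of -2.76 (*Bcas1*) to -0.97 (*Slc12a2*), among them *Slpi*, a secreted protease inhibitor (-1.77), *Cenpf*, a kinetochore protein (-1.75), *Cd86*, a costimulatory ligand (-1.50), and *Ifitm3*, an interferon-induced membrane protein (-1.01).

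Transporters and junction proteins held the largest differences in both directions. *Slc7a2*, a transporter of arginine and other cationic amino acids, was 4.58 to 7.64 (median 6.12) in GFP+ and 6.62 to 9.87 (median 8.33) in GFP- CD24+CD29lo cells. In CD24+CD29+ cells it was 6.03 to 9.06 (median 7.06) in GFP+ and 4.59 to 5.58 (median 4.73) in GFP- cells. The order of GFP+ and GFP- cells was reversed between the gates, without overlap in the basal one. Its GFP effect was -2.37 in CD24+CD29lo cells (limma, adjusted p = 0.00161) and 2.11 in CD24+CD29+ cells, which did not pass there (adjusted p = 0.151), and the difference was -4.48 (SE 0.69, adjusted p = 0.000839). The 3 other *Slc7a2* probes were dimmer, at -1.27, -0.81 and -0.43, and none was called. *Slc1a1*, a glutamate transporter, had the opposite sign, 3.86 (SE 0.88, adjusted p = 0.0448), but ranged from 4.52 to 11.15 within GFP- CD24+CD29+ cells and lost the call in 26 of 34 omissions. *Slco2a1*, the prostaglandin transporter, was 4.69 to 7.66 in GFP+ and 7.79 to 9.56 in GFP- CD24+CD29lo cells and 7.28 to 9.79 in GFP+ and 6.40 to 9.08 in GFP- CD24+CD29+ cells (difference -3.10, SE 0.59, adjusted p = 0.00913), and its 3 other probes, at -2.18 to -0.10, were not called. *Ptger3*, a receptor for prostaglandin E2, was lower in GFP+ cells without overlap in both gates, with GFP effects of -2.67 in CD24+CD29lo and -1.20 in CD24+CD29+ cells. Its difference of -1.47 (SE 0.34, adjusted p = 0.0448) lost the call in 23 of 34 omissions.

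Claudins seal tight junctions between epithelial cells. *Cldn10* was 5.74 to 8.72 in GFP+ and 9.32 to 10.63 in GFP- CD24+CD29lo cells, and 4.68 to 9.44 in GFP+ and 4.43 to 6.41 in GFP- CD24+CD29+ cells. It fell in GFP+ cells of the luminal gate, and in the basal gate GFP+ arrays reached higher. The difference was -3.49 (SE 0.73, limma, adjusted p = 0.0228), and the 3 other *Cldn10* probes, at -1.98 to -0.37, were not called. *Cldn6* was also called, at -1.87 (SE 0.37, adjusted p = 0.0144). Against these, 18 of the 23 genes of the claudin and tight junction list had a positive difference, with a median of 0.57 and 0 called in that direction. *Gjb2* encodes connexin 26, a gap junction channel. It was 8.18 to 10.43 (median 9.98) in GFP+ and 8.98 to 11.12 (median 9.79) in GFP- CD24+CD29lo cells. In the basal gate *Gjb2* was 4.53 to 5.90 (median 4.69) in GFP+ and 6.27 to 10.94 (median 9.51) in GFP- cells. Only GFP+ basal cells were low, and they did not overlap the other 3 groups. The difference was 4.32 (SE 0.62, adjusted p = 0.000384), with a GFP effect of -4.44 in CD24+CD29+ cells and -0.12 in CD24+CD29lo cells. Another *Gjb2* probe gave 2.51 and the third -0.08, neither called.

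Several positive genes had their highest median in GFP- CD24+CD29+ cells. *Rgs5*, a regulator of G protein signalling that marks pericytes, was 4.40 to 5.09 in GFP+ and 4.37 to 5.07 in GFP- CD24+CD29lo cells. In the basal gate *Rgs5* was 4.45 to 7.10 (median 4.53) in GFP+ and 4.50 to 9.47 (median 8.66) in GFP- cells. It was high on 5 of 6 arrays of the last group, all but replicate 25, and on 1 array of GFP+ CD24+CD29+ cells, replicate 28. The difference was 3.25 (SE 0.63, limma, adjusted p = 0.011), and 3.08 within the second set, where it did not pass (adjusted p = 0.486). *Avpr1a*, a vasopressin receptor, was 6.21 to 9.79 in GFP- CD24+CD29+ cells, and at least 7.50-fold lower in GFP+ CD24+CD29+ cells, where no array detected it. In the luminal gate it was 4.54 to 7.45 in GFP+ and 4.39 to 6.47 in GFP- cells, detected on 6 of 19 arrays. Some luminal arrays thus reached the range of GFP- CD24+CD29+ cells. The difference was 3.63 (SE 0.65, limma, adjusted p = 0.00493), while a second *Avpr1a* probe gave 0.82 and was not called. *Kcne4*, a subunit of potassium channels, was 4.38 to 4.95 in GFP+ and 6.14 to 8.40 in GFP- CD24+CD29+ cells and was detected on no array of the other 3 groups. It had the lowest adjusted p of the positive genes, 2.15e-06 (difference 2.78, SE 0.29), and was at least 4.63-fold lower in GFP+ CD24+CD29+ cells. *Fgl2*, *Olfr78* and *S100a4* had differences of 2.01, 1.83 and 1.41 and no overlap between the basal groups. A second *Olfr78* probe gave -0.04 and was not called. *S100a4* reached 5.51 in GFP+ and 6.21 in GFP- CD24+CD29lo cells, within its range of 5.21 to 6.94 in GFP- CD24+CD29+ cells.

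*Slc28a3*, a nucleoside transporter, was 9.47 to 11.48 in GFP+ and 9.23 to 11.81 in GFP- CD24+CD29lo cells, and 4.48 to 5.50 in GFP+ and 5.50 to 8.75 in GFP- CD24+CD29+ cells (difference 2.64, SE 0.53, adjusted p = 0.0144). *Gyg*, glycogenin, which primes glycogen synthesis, was 4.47 to 6.86 in GFP+ and 6.99 to 9.18 in GFP- CD24+CD29+ cells, while it overlapped in the luminal gate (difference 3.41, SE 0.68, limma, adjusted p = 0.0144). *Cdh19*, a cadherin, was 4.32 to 4.65 in GFP+ and 4.59 to 8.37 in GFP- CD24+CD29+ cells. Its difference of 3.07 lost the call in 16 of 34 omissions. The other probes of *Slc28a3*, *Gyg* and *Cdh19* gave 0.93, -0.09 and 0.48, none called. *Fscn2*, an actin-bundling protein, passed in neither gate. It was 5.17 to 8.86 in GFP+ and 4.65 to 6.76 in GFP- CD24+CD29lo cells, and 4.79 to 9.47 in GFP+ and 7.99 to 9.59 in GFP- CD24+CD29+ cells. Its difference of 3.48 lost the call in 21 of 34 omissions, and its other probe, near background, gave -0.37. The other positive genes were *Slc6a8*, *Ppp1r15a*, *Anxa1*, *Rcan2*, *Celf2* and *Srp54a*, with differences of 1.24 to 1.79.

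Some markers of cells outside the epithelium were also lower in GFP+ than in GFP- CD24+CD29+ cells. Over 8 pericyte markers, *Rgs5* included, the summed signal was 225.8 to 767.2 on GFP+ and 377.7 to 1534 on GFP- CD24+CD29+ arrays, with medians of 310.9 and 963.7. It was 244.9 to 366.7 on GFP+ and 259 to 431 on GFP- CD24+CD29lo arrays. Of the 8, *Des* (mean 5.91 in GFP+ and 8.00 in GFP- CD24+CD29+ cells) and *Cspg4* were detected on 6 of 6 GFP- CD24+CD29+ arrays. In that group *Rgs5* was detected on 5 arrays, *Pdgfrb* and *Kcnj8* on 2 each, and *Abcc9*, *Higd1b* and *Notch3* on 0. *Cspg4* was also detected on every array of the other groups. Its means were 6.34 in GFP+ and 6.81 in GFP- CD24+CD29+ cells (GFP effect -0.15, limma, adjusted p = 0.949). The sum of 12 fibroblast markers was 516.3 to 1530 on GFP+ and 1106 to 2757 on GFP- CD24+CD29+ arrays. Of these 12, *Col3a1* passed between the basal groups, with a mean of 5.56 in GFP+ and 8.41 in GFP- cells (GFP effect -2.78, limma, adjusted p = 0.00326). *Col1a2* had means of 6.54 in GFP+ and 8.03 in GFP- cells (-1.72, limma, adjusted p = 0.0823). Both were detected on 6 of 6 GFP- arrays, and *Mfap5* was detected on 0. The median GFP effect of the 12 was -0.27 in CD24+CD29+ cells. *Dcn*, *Lum*, *Pdgfra*, *Fap* and *Mfap5* went the other way there, at 0.31, 0.25, 0.11, 0.08 and 0.03. The endothelial marker *Plvap* passed as well (-1.19, adjusted p = 0.0405), while the sum of 12 endothelial markers had medians of 354 in GFP+ and 449.3 in GFP- CD24+CD29+ cells. The sum of 6 adipocyte markers had medians of 619.9 in GFP+ and 1260 in GFP- CD24+CD29+ cells. In CD24+CD29lo cells the medians of this sum were 404.5 in GFP+ and 584.4 in GFP- cells. Of the 6 adipocyte markers, 5 had a negative difference (median -0.34), unlike the positive genes. The lymphoid, myeloid, erythroid and Schwann cell sums had medians of 200.3, 272.1, 217.1 and 764.9 in GFP+ CD24+CD29+ cells. In GFP- CD24+CD29+ cells these medians were 220.2, 344.8, 209 and 1020. The part of such cells in the result was not tested. Over 5 luminal gate markers the sum was 1176 to 3835 on GFP+ and 1663 to 4800 on GFP- CD24+CD29+ arrays, with medians of 1959 and 2517. GFP- CD24+CD29+ replicate 25 stood apart from its group, with the lowest *Robo1* (7.80) and *Rgs5* (4.50) and the highest *Cd14* (7.21), *Crym* (7.85) and *Slc1a1* (11.15).

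**Figure D5:**
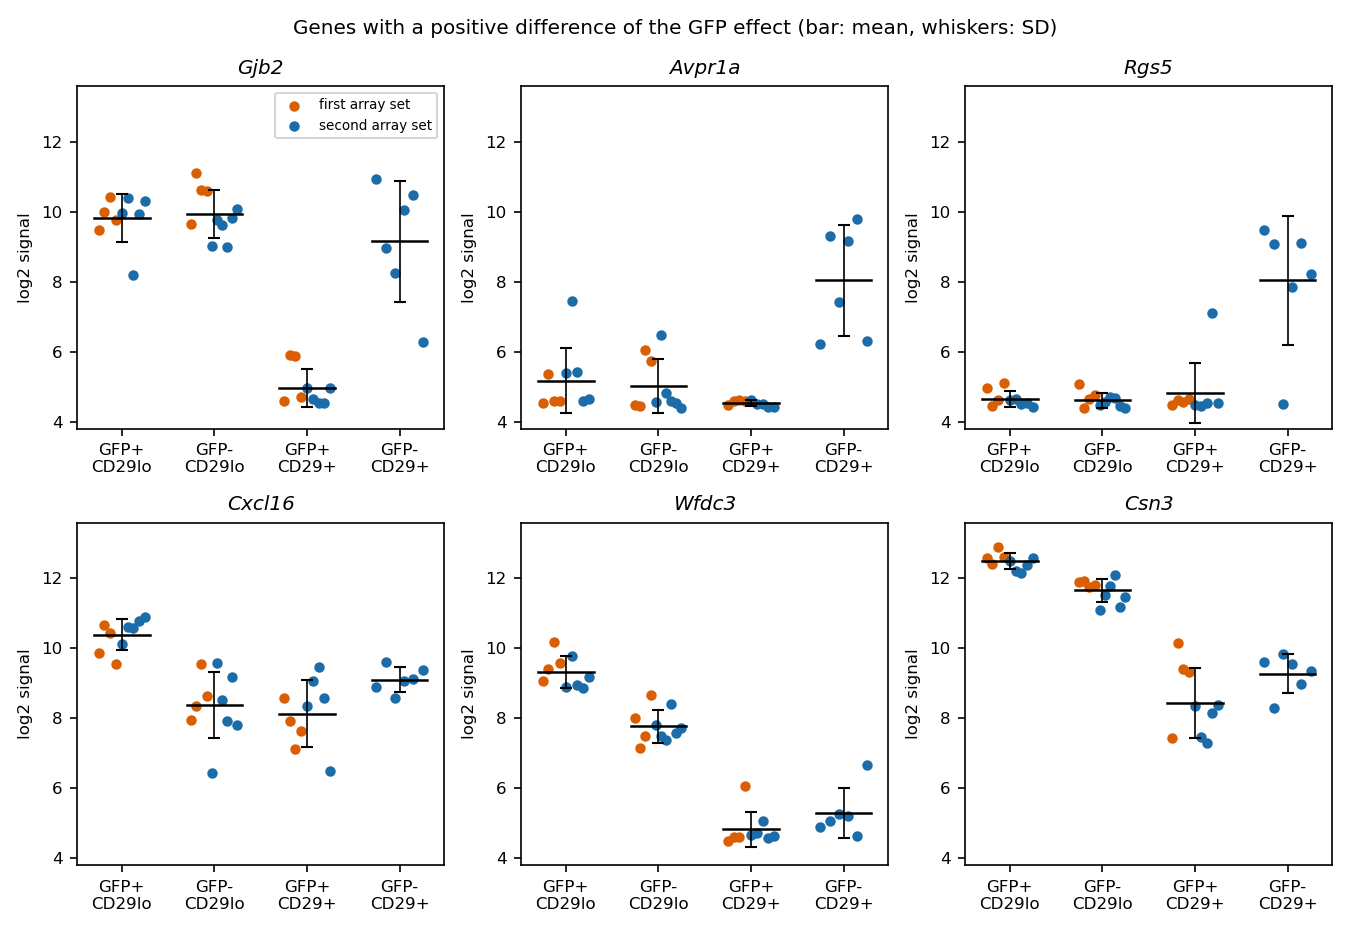
Log2 signal on each array for 6 genes with a positive difference, drawn as for the negative genes. *Gjb2* is low in GFP+ CD24+CD29+ cells, *Avpr1a* and *Rgs5* are high in GFP- CD24+CD29+ cells, and *Cxcl16*, *Wfdc3* and *Csn3* are higher in GFP+ than in GFP- CD24+CD29lo cells.

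A smaller number of positive genes rose in GFP+ luminal cells. *Cxcl16*, a membrane-bound chemokine, was 9.54 to 10.89 (median 10.58) in GFP+ and 6.44 to 9.57 (median 8.43) in GFP- CD24+CD29lo cells. In CD24+CD29+ cells it was 6.49 to 9.46 (median 8.36) in GFP+ and 8.58 to 9.61 (median 9.09) in GFP- cells. It rose by 2.01 in GFP+ luminal cells (limma, adjusted p = 0.000574) and had a GFP effect of -0.88 in basal cells. The difference was 2.89 (SE 0.54, limma, adjusted p = 0.00721), while the other *Cxcl16* probe gave 1.43 and was not called. *Wfdc3*, a protein with whey acidic protein domains, was 8.88 to 10.18 in GFP+ and 7.15 to 8.68 in GFP- CD24+CD29lo cells, without overlap, and stayed low in both basal groups (4.49 to 6.06 in GFP+ and 4.64 to 6.67 in GFP- cells). Its difference was 2.12 (SE 0.36, limma, adjusted p = 0.00325), and its other probe, near background, gave 0.09.

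The reporter itself was called. Its eGFP probe was 10.40 to 11.72 in GFP+ and 4.57 to 5.07 in GFP- CD24+CD29lo cells, and 7.61 to 10.69 in GFP+ and 4.85 to 7.41 in GFP- CD24+CD29+ cells. GFP+ arrays lay above GFP- arrays in both gates, with a narrower gap in the basal gate. Among GFP- arrays the probe passed detection on 1 of the 10 CD24+CD29lo arrays and on 4 of the 6 CD24+CD29+ arrays, so reporter RNA was present in part of the GFP- basal samples. The sort used GFP, so these levels describe the gates and their difference is no finding.

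Of 52 gene lists, 20 held a call, and 26 of the 77 called genes were in a list. *Cdkn2b* and *Cdkn2d*, inhibitors of the cyclin D kinases, were called at -1.75 (SE 0.38) and -1.15 (SE 0.23). Their adjusted p were 0.0284 and 0.0157 (limma). In the list of cell cycle and replication genes 0 of 38 were called, with a median of -0.45 and 28 of 38 negative. *Cenpf*, the kinetochore gene called at -1.75, was not in that list. *Adam10*, a protease that sheds Notch and other surface proteins, was called at -1.37 and lost the call in 27 of 34 omissions. No call fell among 36 cytosolic ribosomal protein genes (median 0.18), 31 oxidative phosphorylation genes (-0.10), 26 collagen genes (0.43), 27 integrin and laminin genes (-0.03), 34 interferon and MHC class I genes (-0.32) or 52 histone genes (-0.24). *Ifitm3*, an interferon-induced gene called on the negative side, was not in the interferon list. A count of 0 in a list does not show equal effects for its members.

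Of the 77 called genes, 41 had other probes, 72 in all, of which 60 had the same sign and 8 were called. The difference kept its sign for all 77 called genes within the second set alone, which is part of the same data, and 22 of them passed there, against 0.101% of probes overall. Between the array sets, the GFP effect of CD24+CD29lo cells differed for 64 probes (0.178%), and none of the 77 called genes was among them. Leaving out single arrays moved the count of probes called between GFP+ and GFP- CD24+CD29+ cells (39, or 0.109%) to 79 without replicate 33, 63 without replicate 13 and 61 without replicate 25 of the GFP- group, and to 25 without replicate 15 of the GFP+ group. The count for the difference between the gates, 102 probes, stayed within 79 to 111 over the 34 omissions, and 46 of the 77 genes were called in every one. Without GFP+ CD24+CD29lo replicate 22 and GFP- CD24+CD29+ replicate 25 together, 115 probes were called, 83 of them among the 102.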

How the data were processed

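RNA of sorted cells was amplified with a NuGEN system and hybridized to Illumina WG-6 version 2 arrays. The intensity of each probe was deposited on a linear scale, not normalized, and beside it a deposited fraction, 1 minus the detection p of the probe. The table of log2 values deposited by the authors was processed by them. Their methods describe quantile normalization and an empirical Bayes correction for collection dates, and which of them produced this table is not stated. The submitters' notes name R 2.14.1.

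All 34 arrays were normalized together with neqc (offset 16; limma 3.58.1, R 4.3.3), which takes the background from the detection p and ends in quantile-normalized log2 signals. Of 45281 probes, 35870 were kept, with signal above the 20th percentile in at least 80% of the arrays of 1 group. A linear model with a mean per group and a term for the array set gave the GFP effect in each gate and their difference. P-values are two-sided, from limma's moderated test, with Benjamini-Hochberg adjustment across the 35870 probes, and were called under 0.05. Each of 16535 genes was read from its brightest probe. A probe counted as detected at a detection p under 0.05. Where no array of a group detected it, the fold within a gate is a lower bound from the lowest detected signal of each array and is written "at least". The number of arrays limits the precision.

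Named genes are the 15 largest differences in each direction among called genes, up to 4 called members of each list or else its brightest member, eGFP and gate genes. Other genes were named after their values were seen. The members and the 52 lists were chosen with earlier results of these data known. The eGFP probe was named by its identifier in a supplementary table. The model was tested on simulated data with normally distributed noise. It called 71 of 100 probes given a difference of 2 in size (log2) and 89 of 100 given one of 3. It also called 9 probes given no difference. Alternatives were no set term, the second set alone, the set as a random block, no background correction, the processed values, a detection filter, no filter, array weights and leaving out each array. Leaving out replicates 22 and 25 together was chosen after seeing the data.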

Additional observations from a re-analysis of the deposited data

Results flagged for a closer look

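Among 184 group values of 46 genes, 26 had 1 array far from the rest of its group. The limits used flag about 1 in 20 groups by chance where values are normally distributed. That was not tested and need not hold for groups near background, so 26 is not read as an excess. The values are log2 signals, each set against the nearest array of the same group.

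Among GFP+ CD24+CD29lo arrays, highest and apart were *Avpr1a* on replicate 19 (7.45 against 5.41), *Cdh19* on replicate 34 (8.98 against 6.38), *Sytl2* on replicate 4 (6.54 against 5.61) and *Tox3* on replicate 2 (6.04 against 5.18). Among GFP+ CD24+CD29lo arrays, lowest and apart were *Gjb2* on replicate 22 (8.18 against 9.47), *Gyg* on replicate 22 (4.63 against 6.84) and *Krt14* on replicate 16 (5.96 against 8.52). Among GFP- CD24+CD29lo arrays, highest and apart was *S100a4* on replicate 14 (6.21 against 5.23). Among GFP- CD24+CD29lo arrays, lowest and apart were *Cldn6* on replicate 27 (5.59 against 7.18) and *Cxcl15* on replicate 7 (6.01 against 8.40). Among GFP+ CD24+CD29+ arrays, highest and apart were *Crym* on replicate 32 (5.21 against 4.67), *Cxcl15* on replicate 28 (5.20 against 4.70), *Fgl2* on replicate 9 (5.13 against 4.67), *Olfr78* on replicate 3 (5.03 against 4.62), *Rgs5* on replicate 28 (7.10 against 4.66), *Sytl2* on replicate 1 (6.03 against 5.00), *Trpc6* on replicate 28 (4.70 against 4.48), *Upk3a* on replicate 9 (5.13 against 4.74) and *Wfdc3* on replicate 11 (6.06 against 5.05). Among GFP+ CD24+CD29+ arrays, lowest and apart were eGFP on replicate 15 (7.61 against 9.23) and *Id3* on replicate 32 (4.52 against 5.98). Among GFP- CD24+CD29+ arrays, highest and apart were *Cd14* on replicate 25 (7.21 against 5.37), *Sytl2* on replicate 29 (4.94 against 4.62) and *Wfdc3* on replicate 33 (6.67 against 5.25). Among GFP- CD24+CD29+ arrays, lowest and apart were *Rgs5* on replicate 25 (4.50 against 7.85) and *Robo1* on replicate 25 (7.80 against 9.42).

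The GFP effect differed between the gates, by limma's test of the difference itself, for the named genes that follow, with differences in log2. Negative differences of 3 or more in size were *Slc7a2* -4.48, *Itih2* -3.65, *Cldn10* -3.49, *Cxcl15* -3.49, *Upk3a* -3.41, *Crym* -3.36, *Robo1* -3.18, *Gpc1* -3.11, *Slco2a1* -3.10, *Samd5* -3.07, *Fam43a* -3.02, *Sytl2* -3.01 and *Trpc6* -3.00. The smaller negative ones were *Tox3* -2.91, *Gipc2* -2.89, *Jag1* -2.80, *Cav1* -2.11, *Fgfr2* -1.99, *Cldn6* -1.87, *Cdkn2b* -1.75, *Ptger3* -1.47, *Id3* -1.46, *Adam10* -1.37, *Foxa1* -1.36 and *Cdkn2d* -1.15. The positive ones under 2.5 were *S100a4* 1.41, *Cd14* 1.63, *Olfr78* 1.83, *Csn3* 1.89, *Fgl2* 2.01 and *Wfdc3* 2.12. The larger positive ones were *Slc28a3* 2.64, *Kcne4* 2.78, eGFP 2.85, *Cxcl16* 2.89, *Cdh19* 3.07, *Rgs5* 3.25, *Gyg* 3.41, *Fscn2* 3.48, *Avpr1a* 3.63, *Slc1a1* 3.86 and *Gjb2* 4.32. The GFP effect in CD24+CD29lo cells also differed between the array sets for 64 probes.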

How the results depend on the processing

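No paired analysis was possible because the replicate numbers are unique sample numbers. All 77 called genes kept the sign of their difference under each of the 8 other settings of the model, values or filter. The number still called was 74 with the detection filter, 70 on the authors' processed values, 64 with the set as a random block and with no background correction, 62 with no filter, 58 with no set term, 51 with array weights and 22 within the second set. The second set alone, with fewer arrays, gave 39 probes for the difference (11 positive and 28 negative), 194 for the GFP effect in CD24+CD29lo cells and 8 for that in CD24+CD29+ cells. No background correction gave 23 probes in CD24+CD29+ cells, the processed values gave 50 positive probes for the difference, the detection filter gave 42 for the difference between array sets, and array weights gave 1475 in CD24+CD29lo cells. The cause was not tested. Over the omissions of 1 array the count for CD24+CD29+ cells ranged from 25 to 79. The count for the difference between array sets ranged from 37 without replicate 10 to 102 without replicate 8.

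Genes that were not called changed sign in some settings, with log2 differences as follows. With no set term *Cox6c* was at 0.13, *Errfi1* at -0.15, *Hbb-bs* at -1.11 and *Srf* at 0.15. Within the second set *Cdh1* was at -0.0591, *Ddit4* at 0.0993, *Igfbp5* at 0.0808, *Itgb1* at 0.0433, *Rpl23* at -0.0563 and *Tapbp* at 0.0561. With the random block *Cox6c* was at 0.0202, *Errfi1* at -0.0502, *Hbb-bs* at -0.28 and *Srf* at 0.000578. *Fabp4* was at 0.27 with no background correction and at 0.29 on the processed values. With array weights *Acsl3* was at -0.00202, *Gas1* at 0.23, *Itgb1* at 0.00172 and *Srf* at 0.0303. Without replicates 22 and 25 *Gas1* was at 0.00239 and *Itgb1* at 0.0051. Leaving out 1 array gave -0.0789 to 0.26 for *Acsl3*, -0.40 to 0.0327 for *Cd8a*, -0.14 to 0.0272 for *Cox6c*, -0.0929 to 0.26 for *Egr1*, -0.0492 to 0.10 for *Errfi1*, -0.99 to 0.0247 for *Fabp4*, -0.30 to 0.16 for *Gas1* and -0.13 to 0.0969 for *Itgb1*. Signals of genes near background limit the size of their differences.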
